A study of Mus musculus with 12 samples.

Results

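Wnt ligands, their Frizzled receptors and the secreted Wnt inhibitors were followed in the adult seminal vesicles of mice exposed to a synthetic estrogen in the first days of life. The genes described are all those whose array symbol is Wnt, Fzd, Sfrp or Dkk followed by a number and an optional a or b, together with Lrp5, Lrp6, Axin2 and Lef1. This gave 41 members of 30063 named genes: 19 Wnt ligands, 10 Frizzled receptors, 4 secreted Frizzled-related proteins (Sfrp), 4 Dickkopf proteins (Dkk), the co-receptors Lrp5 and Lrp6, and the target genes Axin2 and Lef1. Each member had 1 probe set.

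Male C57BL/6 pups were injected under the skin with corn oil holding diethylstilbestrol (DES), at a daily dose of 2 µg for each pup from day 1 to day 5, or with corn oil alone (vehicle). The seminal vesicles were taken at week 10, and total RNA of the whole gland was hybridised to Affymetrix arrays. The groups held 3 arrays each: wild type after DES (WT_DES), wild type after vehicle (WT_vehicle), mice labelled as lacking estrogen receptor alpha after DES (aERKO_DES) and the same genotype after vehicle (aERKO_vehicle). The labels do not say how the aERKO allele was made, and whether each of the 3 arrays stands for its own animal is not stated either. The p-values therefore measure the spread between arrays, which may be technical. Values are log2 expression on the scale of robust multi-array averaging (RMA), and a difference of 1 is a 2-fold change.

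Wnts are secreted, lipid-modified ligands that bind a Frizzled receptor, and with Lrp5 or Lrp6 as co-receptor they stabilise beta-catenin, which then acts with Tcf and Lef factors on target genes such as Axin2. Sfrp proteins carry a Frizzled-like domain and bind Wnts outside the cell, whereas Dkk1, Dkk2 and Dkk4 act on Lrp5 and Lrp6. Dkk3 shares their structure, but its part in Wnt signalling is less settled. The seminal vesicle grows from the lower Wolffian duct, and in mouse embryos Wnt9b from the Wolffian duct and Wnt4 from the neighbouring mesenchyme are needed for the Müllerian duct, the forerunner of the female tract.

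Esr1, the gene of estrogen receptor alpha, was checked first. It averaged 6.90 ± 0.0904 in aERKO_DES, 6.99 ± 0.106 in aERKO_vehicle, 7.66 ± 0.0965 in WT_DES and 7.75 ± 0.0795 in WT_vehicle (SD, n = 3 arrays each). The aERKO arrays lay below the WT arrays by 0.76 in both treatments (limma, adjusted p = 1.06e-05 given DES and 0.00587 given vehicle). The array gives 1 summary of the whole transcript, so the signal left in aERKO does not tell how much whole Esr1 mRNA there was. The luminal epithelial list, which includes the secretory protein genes Svs2 and Svs4 of this gland, summed to between 33573 and 38738 linear units on all 12 arrays. Svs2 (12.91 to 13.55) and Svs4 (13.73 to 13.96) were its brightest genes by far. The sum therefore says little about the rest of the list, whose genes moved both ways in WT, as given below.

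Of the 41 members, 39 were tested, because their value exceeded the median of the array on at least 3 of the 12 arrays. Wnt16 exceeded it on 0 arrays and Wnt8b on 2, and neither was tested. Their values lay between 5.63 and 6.08 for Wnt16 and between 5.41 and 6.11 for Wnt8b. Sfrp4 passed through the 3 WT_DES arrays alone, Fzd8 exceeded the median on 4 arrays, Dkk4 on 10 and the other 36 on all 12.

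DES exposure left the WT gland with higher transcripts of 4 genes of the secreted inhibitor families, Sfrp1, Sfrp4, Dkk2 and Dkk3, and of Wnt4, Lrp6 and Fzd6. In this comparison 7 of 39 members rose and 10 fell at an adjusted p below 0.05. Sfrp4, which passed the filter only where it is high, is 1 of the 7, and of the other 38 members 6 rose and 10 fell. Over all 20102 genes tested, 20.7% were called higher and 23.3% lower, so the members' counts are near the background. Because RNA of a whole gland was measured, more cells of a type and more RNA per cell cannot be told apart in any of these differences. The median difference was -0.16 over the members and -0.05 over all genes. The next paragraphs give the inhibitors, then the ligands, the receptors and the targets. Sfrp and Dkk genes are called inhibitors here by family, although Dkk2 can also act as a weak activator and the part of Dkk3 is less settled.

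Sfrp1, which binds Wnts and keeps them from their receptors, measured 10.30, 10.80 and 10.08 on the WT_DES arrays, against 8.14, 7.83 and 7.86 on the WT_vehicle arrays. All 3 exposed arrays lay above the controls, and the means were 10.4 ± 0.368 in WT_DES and 7.94 ± 0.172 in WT_vehicle (SD, n = 3 each). The difference of 2.45 ± 0.16 (SE) is 5.47-fold (limma, adjusted p = 1.8e-07).

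Sfrp4, another Frizzled-related Wnt antagonist, measured 8.09, 8.73 and 7.71 in WT_DES, against 5.91, 5.76 and 5.79 in WT_vehicle. Outside WT_DES its 9 arrays lay between 5.60 and 5.91, below the array medians of 6.03 to 6.14, so it cannot be told whether the transcript was present there. With WT_vehicle set at its array medians, Sfrp4 was at least 4.29-fold higher in WT_DES. The fitted difference on the log2 scale was 2.35 ± 0.18 (SE, adjusted p = 5.96e-07), and it was called without the filter too.

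Dkk2, an Lrp5 and Lrp6 ligand that acts as inhibitor or weak activator depending on the cell, measured 8.51, 8.86 and 8.24 in WT_DES, against 6.88, 6.51 and 6.77 in WT_vehicle. The groups were more than 1 unit apart at their nearest arrays, and the difference was 1.82 ± 0.14 (SE), or 3.53-fold (adjusted p = 4.89e-07). Dkk3 measured 7.94, 8.35 and 8.18 in WT_DES, against 7.46, 7.28 and 7.35 in WT_vehicle. Its smaller difference of 0.80 ± 0.11 (SE), or 1.74-fold, also left no overlap (adjusted p = 1.09e-04). WT_DES array 2 was the highest of its group for all 4 inhibitors, and without it each kept its call.

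The remaining inhibitors did not join this rise. Dkk1, the best-known Lrp6 antagonist, fell by 0.33 ± 0.08 (SE), with 6.40, 6.21 and 6.42 in WT_DES, against 6.62, 6.66 and 6.72 in WT_vehicle (adjusted p = 0.00544). Dkk4 measured 5.85, 5.75 and 6.18 in WT_DES, against 6.18, 6.35 and 6.12 in WT_vehicle, and its difference of -0.29 did not pass (adjusted p = 0.0794). Sfrp2 (difference 0.17) and Sfrp5 (-0.20) did not pass either, with adjusted p of 0.116 and 0.137. Of the 4 Sfrp genes 2 rose and none fell, and the 2 include Sfrp4, which passed the filter only where it is high. Of the 4 Dkk genes 2 rose and 1 fell. Over all genes tested 20.7% were called higher and 23.3% lower.

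**Figure D1:**
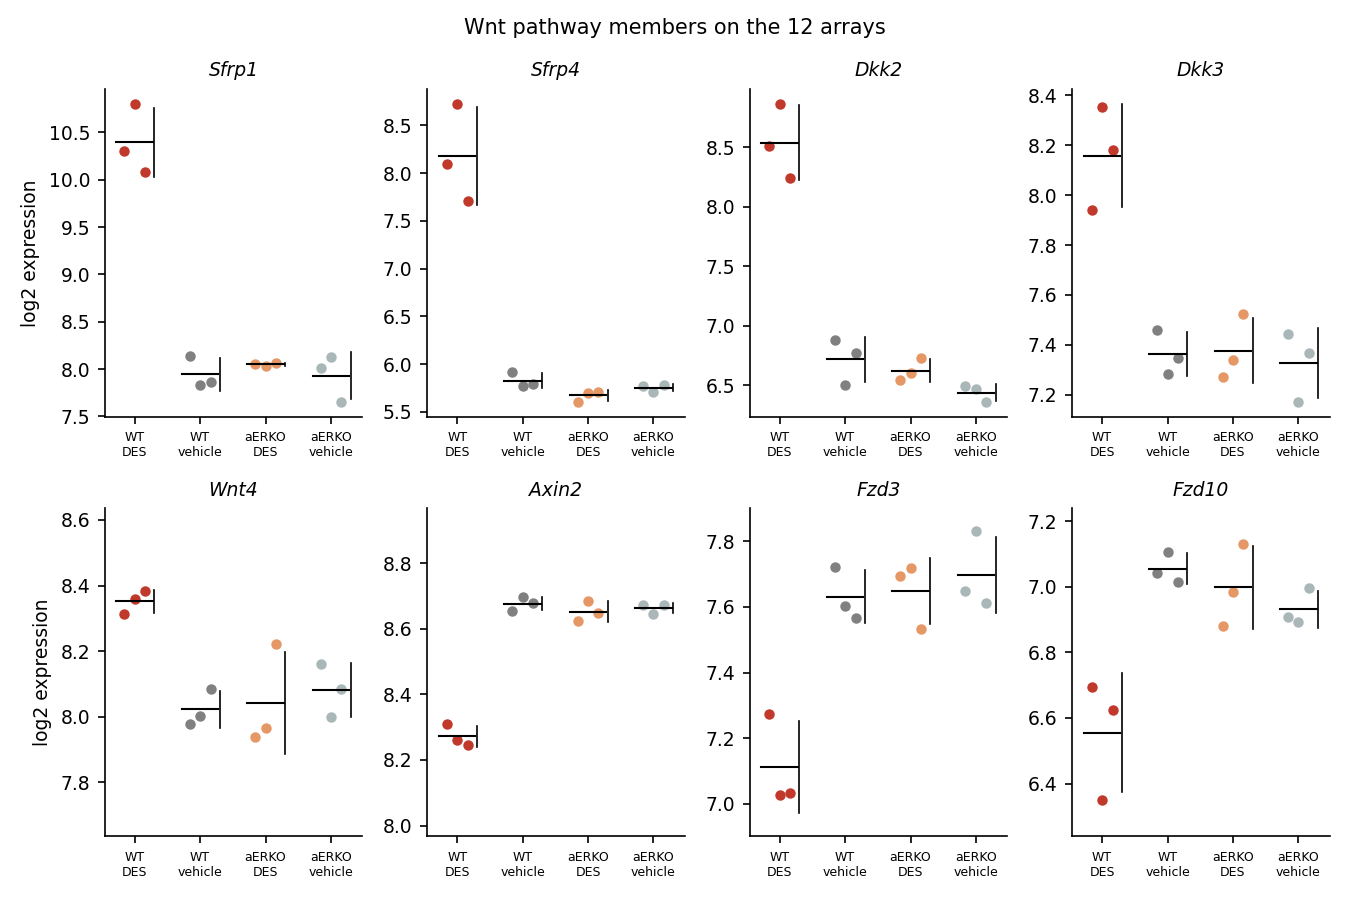
Log2 expression (y axis, its own range in each panel and at least 1 unit tall) of 8 members on the 12 arrays, with 1 point per array, a line at the group mean and a bar of 1 SD. The WT_DES arrays lie above all other arrays for Sfrp1, Sfrp4, Dkk2, Dkk3 and Wnt4 and below them for Axin2, Fzd3 and Fzd10, while the other 3 groups lie close together.

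Among the ligands, 1 of 17 tested rose and 4 fell, where 20.7% of all genes tested were called higher and 23.3% lower. Wnt4, which in the mouse also directs Müllerian duct formation and mammary branching, measured 8.31, 8.36 and 8.38 in WT_DES, against 7.98, 8.002 and 8.09 in WT_vehicle. The 3 exposed arrays were close to each other and clear of the controls, and the difference was 0.33 ± 0.08 (SE, adjusted p = 0.00579).

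The 4 ligands that fell were lower by 0.20 to 0.36. Wnt1, a midbrain organiser ligand, measured 6.28, 6.18 and 6.25 in WT_DES, against 6.58, 6.53 and 6.65 in WT_vehicle (difference -0.36, adjusted p = 0.0292). Wnt5b, mostly a non-canonical ligand, measured 7.62, 7.35 and 7.58 in WT_DES, against 7.78, 7.90 and 7.78 in WT_vehicle (-0.31, adjusted p = 0.0135). These differences are small beside those of the inhibitors, although neither pair of groups overlapped.

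Wnt6, an epithelial ligand, measured 6.29, 6.35 and 6.50 in WT_DES, against 6.66, 6.58 and 6.58 in WT_vehicle (-0.23, adjusted p = 0.0478). Wnt8a, an early embryonic ligand, measured 6.02, 5.98 and 6.18 in WT_DES, against 6.33, 6.23 and 6.23 in WT_vehicle (-0.20, adjusted p = 0.0382). Both sit close to the threshold of the test. The differences of these 4 turned sign with the hybridization controls (0.0018 for Wnt1, 0.05 for Wnt5b, 0.13 for Wnt6 and 0.16 for Wnt8a). The Wnt1 call was lost without WT_DES array 2 or any 1 WT_vehicle array, that of Wnt5b without WT_DES array 2 or WT_vehicle array 2, that of Wnt6 in 8 of the 12 fits that leave out an array and that of Wnt8a in 6.

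The 12 other ligands tested had differences between -0.27 (Wnt10b) and 0.09 (Wnt5a) and did not pass. Wnt5a, a non-canonical ligand of many mesenchymes, measured 7.96, 7.91 and 7.94 in WT_DES, against 7.88, 7.82 and 7.85 in WT_vehicle. Its groups did not overlap, but the difference was within the error of the fit (adjusted p = 0.258). Wnt9b, the Wolffian duct ligand, differed by -0.11 (95% interval -0.32 to 0.09) and Wnt7a, which patterns the female tract in the mouse, by -0.19 (-0.47 to 0.08).

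Of the 10 Frizzled receptors 1 rose and 4 fell, where 20.7% of all genes tested were called higher and 23.3% lower. Fzd3, a receptor of planar polarity and axon guidance, fell by 0.52 ± 0.09 (SE, adjusted p = 5.77e-04), with 7.27, 7.03 and 7.03 in WT_DES, against 7.72, 7.60 and 7.57 in WT_vehicle. Fzd10 fell by 0.50 ± 0.09 (SE, adjusted p = 9.45e-04), with 6.69, 6.35 and 6.62 in WT_DES, against 7.04, 7.11 and 7.02 in WT_vehicle. These were the largest decreases among the members.

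Fzd5, a receptor that Paneth cells of the mouse gut need, measured 8.10, 8.11 and 7.96 in WT_DES, against 8.41, 8.40 and 8.32 in WT_vehicle (difference -0.32, adjusted p = 0.00349). Fzd8 was lower by 0.27 (adjusted p = 0.0285), with 5.72, 5.93 and 5.70 in WT_DES, against 6.13, 6.08 and 5.94 in WT_vehicle. The nearest Fzd8 arrays of the groups were almost level, and the WT_DES values lie below their own array medians. Fzd5 and Fzd8 turned sign with the hybridization controls (0.04 and 0.09), as Dkk1 did (0.03). The Fzd8 call was lost without WT_DES array 1, WT_DES array 3, WT_vehicle array 1 or WT_vehicle array 2.

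Fzd6, which patterns hair follicles in the mouse, measured 9.06, 9.07 and 8.94 in WT_DES, against 8.80, 8.85 and 8.85 in WT_vehicle (0.19, adjusted p = 0.033). The co-receptor Lrp6 measured 9.76, 9.90 and 9.63 in WT_DES, against 9.59, 9.48 and 9.51 in WT_vehicle (0.24, adjusted p = 0.0355). Lrp5, the other co-receptor, differed by -0.06 (95% interval -0.20 to 0.07) and did not pass. The other 5 Frizzled genes, Fzd1, Fzd2, Fzd4, Fzd7 and Fzd9, had differences between -0.27 and 0.05 and did not pass. The Fzd6 and Lrp6 calls were lost without a filter, with median scaling and with quantile normalization, and in 5 and 4 of the 12 fits that leave out an array.

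Axin2, a scaffold of the beta-catenin destruction complex and a target of the pathway, measured 8.31, 8.26 and 8.25 in WT_DES, against 8.66, 8.70 and 8.68 in WT_vehicle. The arrays of each group scattered little, with SDs of 0.0333 in WT_DES and 0.0202 in WT_vehicle, and it fell by 0.41 ± 0.05 (SE, adjusted p = 7.7e-05). Lef1, a transcription factor partner and target of beta-catenin, measured 6.89, 7.11 and 7.03 in WT_DES, against 6.85, 6.87 and 6.93 in WT_vehicle. Its groups overlapped, and the difference of 0.12 did not pass (adjusted p = 0.169).

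The groups did not overlap for 9 members that were higher in WT_DES and for 20 that were lower. Over all genes tested the groups did not overlap for 25.8%, higher in WT_DES, and for 35.1%, lower in WT_DES. Against all 9 arrays outside WT_DES, the 3 WT_DES arrays lay above for 7 members (Sfrp1, Sfrp4, Dkk2, Dkk3, Wnt4, Wnt5a and Fzd6), as for 20.7% of all genes tested. They lay below for 11 members, 10 of them tested (Axin2, Dkk1, Fzd3, Fzd5, Fzd10, Wnt1, Wnt2, Wnt5b, Wnt6 and Wnt10a, with Wnt8b not tested), as for 21% of all genes tested.

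**Figure D2:**
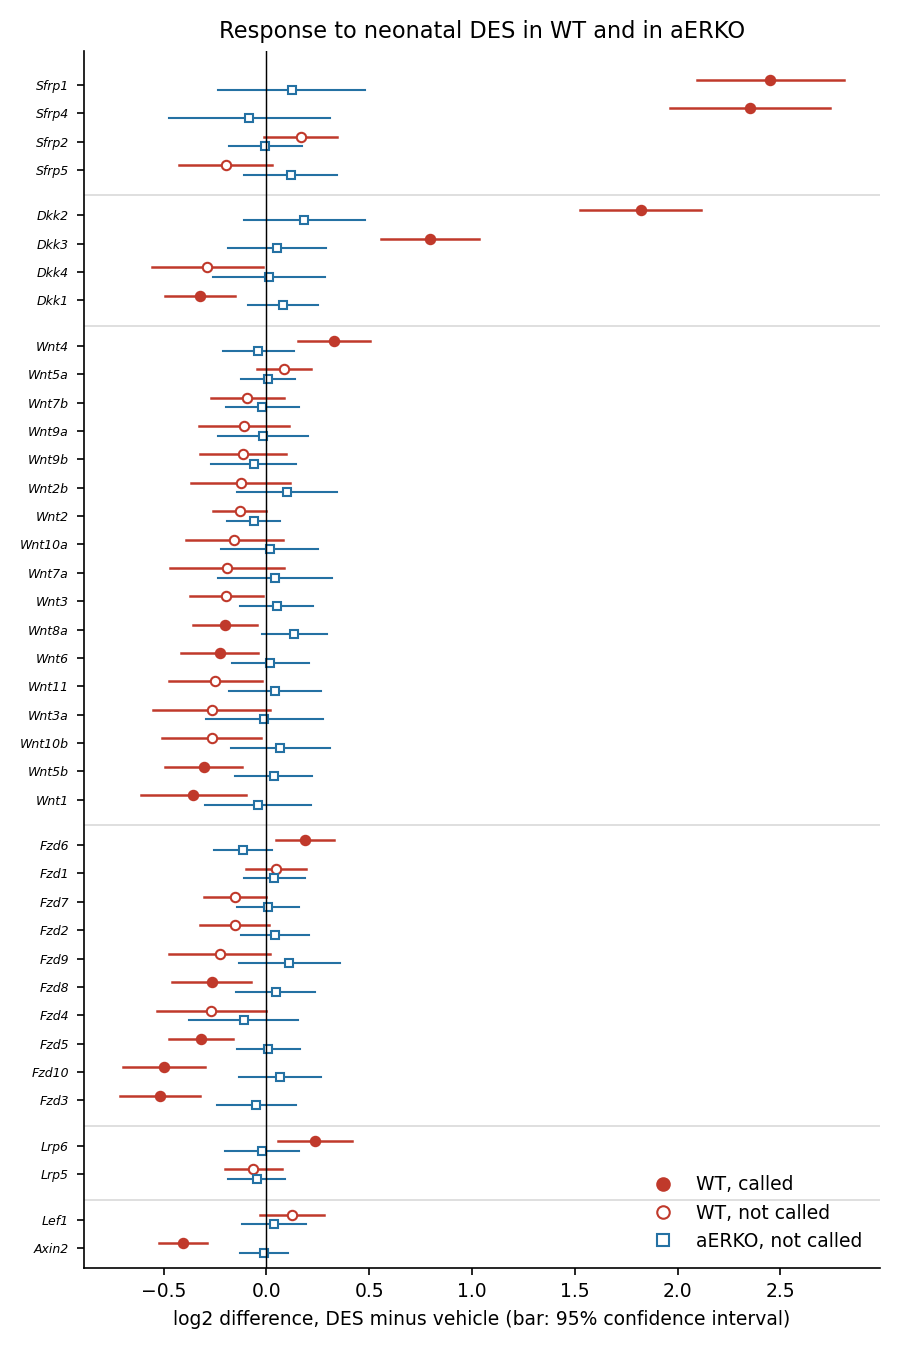
Log2 difference between DES and vehicle (x axis) for the 39 members tested, in WT (circles, filled where called) and in aERKO (squares), with 95% confidence intervals and members grouped by family. Sfrp1, Sfrp4, Dkk2 and Dkk3 stand to the right in WT at 0.80 to 2.45, the other WT differences lie between -0.52 and 0.33, and every aERKO difference lies between -0.11 and 0.18.

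The decreases depended on how the arrays were scaled, and the array controls moved with them. All 23 background control sets, which are probes grouped by their number of G and C bases, were lower in WT_DES than in WT_vehicle, by between -0.05 and -0.81, and their mean difference in aERKO was -0.05. The 4 hybridization controls, RNAs added to each array, differed by -0.36 in WT and -0.13 in aERKO. With arrays shifted to equal hybridization controls, 11 members were called higher and 0 lower in WT, while the median of all genes moved to 0.31, 41.5% of genes were called higher and 1.74% lower. Axin2 then differed by -0.05, Fzd3 by -0.16 and Fzd10 by -0.14, none of them called. With arrays shifted to equal medians, 5 members were higher and 19 lower, with 16.9% and 35.4% of all genes, and with quantile normalization 5 and 18, with 17.5% and 35.5%. The median over the members was -0.16 as deposited and 0.20 with the hybridization controls. Whether the background of the arrays has a part in the small decreases was not tested.

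Sfrp1, Sfrp4, Dkk2 and Dkk3 kept their direction and call under every scaling, which Dkk1 did not. With the hybridization controls, Sfrp1 was higher by 2.81, Sfrp4 by 2.71, Dkk2 by 2.18 and Dkk3 by 1.15, and Wnt4 by 0.69. The members called higher on that scale alone were Sfrp2 (0.52), Lef1 (0.48), Wnt5a (0.44) and Fzd1 (0.40), against the all-gene median of 0.31. Without WT_DES array 2 the number of members called lower was 6, without WT_vehicle array 1 it was 6, without WT_vehicle array 2 it was 5, and without WT_DES array 3 it was 16.

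**Figure D3:**
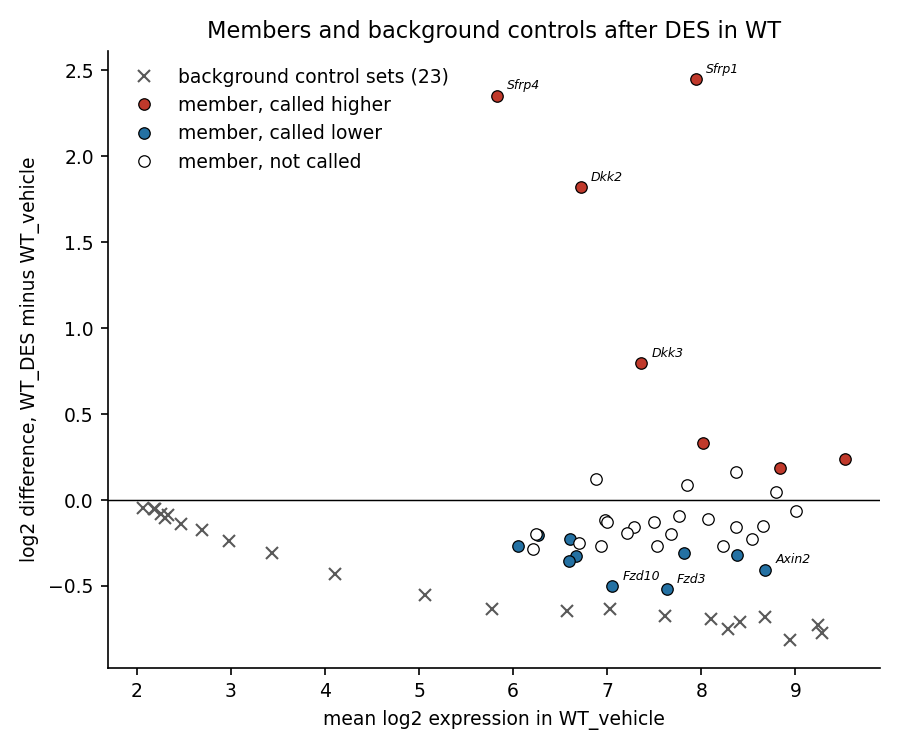
Log2 difference between WT_DES and WT_vehicle (y axis) against the mean log2 value in WT_vehicle (x axis) for the 39 members tested and the 23 background control sets. The control sets fall by up to 0.81 where their values are high, the members called lower lie between -0.20 and -0.52, and Sfrp1, Sfrp4, Dkk2 and Dkk3 stand apart at 0.80 to 2.45.

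Cell type markers also differed in WT. All 8 tested fibroblast markers were higher, with a median difference of 1.53. The summed level of the 9 fibroblast markers on the array was 10915 to 15170 linear units in WT_DES, against 3386 to 4258 in WT_vehicle, 3327 to 3732 in aERKO_DES and 3178 to 3443 in aERKO_vehicle. The summed macrophage markers were 15399 to 20531 in WT_DES, against 2168 to 2702 in WT_vehicle, the neutrophil markers 8363 to 13022, against 663 to 676, and the basal and squamous markers 7138 to 9550, against 2084 to 2176. Macrophage markers were higher in 10 of 10 (median 2.26), basal and squamous epithelial markers in 10 of 10 (1.23), neutrophil markers in 9 of 10 (2.39) and endothelial markers in 7 of 9 (0.62). Smooth muscle markers were lower in 8 of 10 (-0.46), and luminal epithelial markers were split, with 5 higher and 3 lower of 10 (0.12). B and plasma cell markers were higher in 8 and lower in 1 of 9 (1.37), T cell markers higher in 7 of 8 (1.21), proliferation markers in 6 of 8 (0.60), adipocyte markers in 1 of 7 (0.10), and prostate and coagulating gland markers lower in 3 of 5 (-0.60). The WT_vehicle arrays were uneven in the last 2 lists, and the WT_DES arrays in the last. Summed adipocyte markers were 2429 on WT_vehicle array 1, against 832 and 1124 on arrays 2 and 3. Summed prostate and coagulating gland markers were 36848, 22376 and 22502 in WT_vehicle, and 25612, 15654 and 18043 in WT_DES. Msmb, tested and not called, measured 11.66, 8.77 and 11.79 in WT_DES, against 12.66, 7.25 and 8.28 in WT_vehicle. Defb50, not called either, measured 12.30, 11.13 and 11.89 in WT_DES, against 12.56, 9.44 and 10.16 in WT_vehicle. Which cells carry the Sfrp and Dkk transcripts cannot be read from whole-gland arrays, and the part of cell composition was not tested.

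The proximal promoters show what the annotated start sites carry. RefSeq windows from 250 bases before to 50 after the start (GRCm38.p6) matched 27 of the 41 members, with 33 windows. The unmatched members were Dkk3, Dkk4, Fzd2, Fzd3, Fzd6, Fzd8, Lrp5, Lrp6, Sfrp1, Sfrp4, Wnt10a, Wnt5a, Wnt7b and Wnt8a. Both strands were searched for the Tcf and Lef core CTTTGA, the estrogen response half-site GGTCA, and the full element, in which a second half-site follows on the opposite strand after a gap of 3 bases and which therefore contains the half-site. The windows printed here run 5′ to 3′ along the gene, with matches in capitals: Dkk2 as the inhibitor with the largest increase among those matched, Dkk1 as the inhibitor that fell, and Axin2 as the target gene. Dkk2 is at chr3:132085042-132085341 on the plus strand, Dkk1 at chr19:30549447-30549746 on the minus strand and Axin2 at chr11:108920099-108920398 on the plus strand.
Dkk2: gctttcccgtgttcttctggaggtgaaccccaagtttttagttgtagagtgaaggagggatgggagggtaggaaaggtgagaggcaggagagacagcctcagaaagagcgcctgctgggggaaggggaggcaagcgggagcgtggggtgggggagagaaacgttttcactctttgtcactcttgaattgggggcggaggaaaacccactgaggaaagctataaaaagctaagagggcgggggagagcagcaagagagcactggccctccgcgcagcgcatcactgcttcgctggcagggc
Dkk1: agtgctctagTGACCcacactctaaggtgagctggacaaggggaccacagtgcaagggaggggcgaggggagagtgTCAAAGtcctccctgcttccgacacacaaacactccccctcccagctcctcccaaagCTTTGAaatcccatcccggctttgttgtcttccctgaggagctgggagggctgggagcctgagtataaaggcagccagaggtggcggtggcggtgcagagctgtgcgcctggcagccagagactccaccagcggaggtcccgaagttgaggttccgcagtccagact
Axin2: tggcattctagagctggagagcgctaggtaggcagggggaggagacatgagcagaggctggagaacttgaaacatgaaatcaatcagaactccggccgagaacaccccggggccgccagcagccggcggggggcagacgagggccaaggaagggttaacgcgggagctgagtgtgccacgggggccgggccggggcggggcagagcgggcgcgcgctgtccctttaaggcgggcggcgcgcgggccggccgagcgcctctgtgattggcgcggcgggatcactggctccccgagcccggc
The Dkk1 window held 2 Tcf and Lef cores and 1 half-site, and the Dkk2 and Axin2 windows held none of the 3 motifs. G and C bases made up 57.7% of the Dkk2 window, 60.7% of the Dkk1 window and 70.0% of the Axin2 window, against a median of 52.7% over all windows. The core was in 15.2% of member windows (5 of 33: Dkk1, Fzd1, Lef1, Wnt11 and Wnt5b) and in 16% of all 32851 windows. The half-site was in 45.5% of member windows and 40.5% of all windows, and the full element in 0 of 33 member windows and 0.07% of all windows. A match describes letters in the window and no bound factor, and a missing match covers these windows alone.

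In aERKO no response of the members to DES was detected. Of the 39, 0 were called by limma, with 0% of all genes called higher and 0% lower, and none had an unadjusted p below 0.05. Over all genes 264 had an unadjusted p below 0.05. The differences ran from -0.11 (Fzd6) to 0.18 (Dkk2), with a median of 0.02 over the members and -0.01 over all genes.

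For the inhibitors the intervals end below the increases seen in WT. Sfrp1 measured 8.05, 8.04 and 8.07 in aERKO_DES, against 8.01, 8.12 and 7.65 in aERKO_vehicle, a difference of 0.12 (95% interval -0.23 to 0.48). Sfrp4 measured 5.60, 5.70 and 5.71 in aERKO_DES, against 5.77, 5.71 and 5.78 in aERKO_vehicle (-0.08, -0.47 to 0.31). Both stayed near the level of the WT_vehicle arrays.

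Dkk2 measured 6.54, 6.60 and 6.73 in aERKO_DES, against 6.49, 6.47 and 6.36 in aERKO_vehicle. These groups did not overlap, yet the difference of 0.18 (95% interval -0.11 to 0.48) did not pass (adjusted p = 0.999). Dkk3 measured 7.27, 7.34 and 7.52 in aERKO_DES, against 7.45, 7.17 and 7.37 in aERKO_vehicle (0.05, -0.19 to 0.29).

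Wnt4 measured 7.94, 7.96 and 8.22 in aERKO_DES, against 8.16, 7.998 and 8.09 in aERKO_vehicle, and its groups overlapped (-0.04, -0.21 to 0.13). Axin2 was level, at 8.62, 8.69 and 8.65 in aERKO_DES, against 8.67, 8.65 and 8.67 in aERKO_vehicle (-0.01, -0.13 to 0.10). Dkk1 measured 6.64, 6.63 and 6.81 in aERKO_DES, against 6.63, 6.53 and 6.68 in aERKO_vehicle. The Dkk1 groups overlapped, with a difference of 0.08 (-0.09 to 0.25).

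The receptors that moved in WT did not pass in aERKO either. Fzd3 measured 7.69, 7.72 and 7.53 in aERKO_DES, against 7.65, 7.83 and 7.61 in aERKO_vehicle. Fzd10 measured 6.88, 6.98 and 7.13 in aERKO_DES, against 6.91, 6.89 and 7.00 in aERKO_vehicle. In both the groups overlapped, with differences of -0.05 for Fzd3 and 0.07 for Fzd10.

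Fzd5 had 8.36, 8.57 and 8.38 in aERKO_DES, against 8.39, 8.44 and 8.44 in aERKO_vehicle. Fzd6 had 8.84, 8.75 and 8.69 in aERKO_DES, against 8.82, 8.90 and 8.91 in aERKO_vehicle, with the lowest difference of all members. Lrp6 had 9.59, 9.56 and 9.42 in aERKO_DES, against 9.49, 9.66 and 9.49 in aERKO_vehicle. The groups of all 3 overlapped.

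The ligands that fell in WT varied in aERKO as follows. Wnt1 had 6.44, 6.59 and 6.78 in aERKO_DES, against 6.88, 6.35 and 6.70 in aERKO_vehicle. Wnt5b had 7.73, 7.85 and 7.94 in aERKO_DES, against 7.78, 7.74 and 7.92 in aERKO_vehicle. Wnt6 had 6.58, 6.69 and 6.89 in aERKO_DES, against 6.75, 6.61 and 6.75 in aERKO_vehicle. All 3 overlapped, and their differences lay between -0.04 and 0.03. Wnt8a had 6.36, 6.32 and 6.46 in aERKO_DES, against 6.25, 6.17 and 6.31 in aERKO_vehicle, where DES was higher without overlap but not called (0.14, 95% interval -0.02 to 0.29). Fzd8 had 5.93, 6.22 and 6.03 in aERKO_DES, against 6.01, 6.04 and 5.99 in aERKO_vehicle.

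The difference between the responses, aERKO minus WT, was tested directly. It passed for 12 of 39 members, 6 with a positive and 6 with a negative difference, where 9.16% of all genes were positive and 14.1% negative. With median scaling 8 were positive and 4 negative, against 19.1% and 12% of all genes. With quantile normalization these counts were 7 and 4, against 21.3% and 12.9%. With the hybridization controls they were 0 and 4, against 0.662% and 14%. As deposited, the negative ones were Sfrp1 (-2.33, adjusted p = 1.61e-05), Dkk2 (-1.63, 6.33e-05), Dkk3 (-0.75, 0.00461), Wnt4 (-0.37, 0.0339), Fzd6 (-0.30, 0.0319) and Sfrp4 (-2.44, 2.33e-05). Sfrp4 entered the test only through WT_DES, and its 9 other arrays give no level above the medians. The Sfrp1, Dkk2, Dkk3 and Sfrp4 calls held in every alternative tried. The Wnt4 and Fzd6 calls were lost without a filter, with median scaling, with quantile normalization and with the hybridization controls, and in 7 and 9 of the 12 fits that leave out an array.

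The 6 positive ones were Fzd10 (0.57, adjusted p = 0.0082), Fzd3 (0.47, 0.0184), Dkk1 (0.41, 0.0199), Axin2 (0.39, 0.00276), Wnt8a (0.34, 0.0314) and Fzd5 (0.33, 0.0342). Here aERKO did not show the decrease that WT did. None of the 6 was called with the hybridization controls. The count of positive calls was 3 without WT_vehicle array 1 and 3 without aERKO_vehicle array 2. Dkk1 lost its call without WT_vehicle array 3 or aERKO_vehicle array 2, Fzd3 without WT_vehicle array 1, Fzd5 in 7 and Wnt8a in 8 of the 12 fits, while Fzd10 and Axin2 kept theirs in all 12. The median of the interaction was 0.20 over the members and 0.03 over all genes.

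Given vehicle, no difference between the genotypes was detected in any member. Of the 39, 0 were called by limma, with 0.00995% of genes called higher and 0.0149% lower, and none had an unadjusted p below 0.05, as 864 genes did. The differences, aERKO minus WT, ran from -0.28 (Dkk2) to 0.12 (Wnt3a). Dkk2, with the largest difference, measured 6.36 to 6.49 in aERKO_vehicle, against 6.51 to 6.88 in WT_vehicle, with a 95% interval of -0.57 to 0.02.

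Given DES, a difference between the genotypes was called in 25 of 39 members. In aERKO_DES 18 were higher and 7 lower than in WT_DES, against 27.5% and 24.6% of all genes. With median scaling 27 were higher and 6 lower, against 39.7% and 19.5% of all genes. With quantile normalization these counts were 25 and 5, against 38.3% and 19.4%. With the hybridization controls they were 0 and 7, against 2.75% and 29%. This comparison shares the WT_DES arrays with the response in WT and the aERKO_DES arrays with the response in aERKO. The 7 lower ones were Sfrp1 (-2.34), Dkk2 (-1.91), Dkk3 (-0.78), Wnt4 (-0.31), Fzd6 (-0.26) and Lrp6 (-0.24), and Sfrp4, for which aERKO_DES was at least 4.23-fold lower with its arrays set at their medians. Their adjusted p ran up to 0.0295, and all 7 were also called with the hybridization controls. The Wnt4 call was lost with quantile normalization, and that of Lrp6 with median scaling, with quantile normalization, with only the groups compared, and without WT_DES array 1, WT_DES array 2 or aERKO_DES array 3.

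Marker lists moved in this comparison as well. Fibroblast markers were lower in aERKO_DES in 8 of 8 (median -1.57), macrophage markers in 10 of 10 (-2.20), basal and squamous markers in 10 of 10 (-1.33) and adipocyte markers in 6 of 7 (-1.02), while smooth muscle markers were higher in 10 of 10 (0.63). Neutrophil markers were lower in 9 of 10 (-2.32), endothelial in 8 of 9 (-0.55), T cell in 7 of 8 (-1.11) and proliferation markers in 6 of 8 (-0.76). B and plasma cell markers were lower in 8 and higher in 1 of 9 (-1.10). Luminal markers (5 lower and 2 higher of 10) and prostate markers (1 lower and 2 higher of 5) were split. Given vehicle, the adipocyte median was already -0.85, with 0 of 7 called. The part of these cell types in the members' differences was not tested.

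The 18 higher ones ranged from 0.22 (Fzd2) to 0.54 (Fzd3). They included 4 that were not called in WT and stand among the largest here. Fzd9 measured 8.65, 8.65 and 8.81 in aERKO_DES, against 8.41, 8.01 and 8.50 in WT_DES (0.39, adjusted p = 0.0124). Wnt3a, a ligand of axis elongation, measured 7.00, 6.96 and 7.17 in aERKO_DES, against 6.63, 6.50 and 6.86 in WT_DES (0.38, adjusted p = 0.0299). In both, WT_DES array 2 was the lowest of all 12.

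Dkk4 measured 6.15, 6.26 and 6.49 in aERKO_DES, against 5.85, 5.75 and 6.18 in WT_DES (0.37, adjusted p = 0.0261). Wnt10b, a ligand of mammary and bone growth, measured 7.46, 7.53 and 7.79 in aERKO_DES, against 7.32, 7.16 and 7.32 in WT_DES (0.33, adjusted p = 0.0274). The Dkk4 groups overlapped, and the Wnt10b groups did not. The Wnt3a and Dkk4 calls were each lost without WT_DES array 1, WT_DES array 2 or aERKO_DES array 3, and the Wnt10b call without WT_DES array 2 or aERKO_DES array 3. The Fzd2 call was lost without WT_DES array 1 or 2 or aERKO_DES array 2 or 3. On vehicle, the aERKO arrays of these 4 genes gave 8.63, 8.44 and 8.70 for Fzd9, 7.08, 6.74 and 7.33 for Wnt3a, 6.30, 6.12 and 6.44 for Dkk4, and 7.50, 7.32 and 7.75 for Wnt10b. The WT_vehicle arrays gave 8.52, 8.58 and 8.51 for Fzd9, 6.96, 6.88 and 6.95 for Wnt3a, 6.18, 6.35 and 6.12 for Dkk4, and 7.47, 7.57 and 7.57 for Wnt10b. With the hybridization controls 0 of the 18 were called higher and Fzd2 turned sign (-0.0044). The count was 11 without WT_DES array 1, 10 without WT_DES array 2 and 10 without aERKO_DES array 3. With only the groups compared, 12 members were higher and 6 lower, against 18.6% and 19.9% of all genes. Dkk4, Fzd2, Fzd8, Wnt10a, Wnt11 and Wnt3 lost their calls in that fit. Wnt10a also lost its call without a filter and in 8 of the 12 fits that leave out an array. The Fzd8, Wnt11 and Wnt3 calls were each lost in 3 of these 12 fits.

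Other genes of the pathway were read from 6 lists, with the same test over all genes. Of 10 tested textbook beta-catenin targets, 2 rose and 5 fell in WT (median -0.25), and with the hybridization controls 3 rose and 2 fell (median 0.11). For this and the following lists the shares of all genes stand beside the counts at 20.7% higher and 23.3% lower as deposited, and at 41.5% and 1.74% with the hybridization controls. Nkd1, a feedback inhibitor of Dishevelled, fell by 1.25 ± 0.11 (SE, adjusted p = 2.23e-06), with 9.06, 8.66 and 8.65 in WT_DES, against 9.95, 10.08 and 10.10 in WT_vehicle. It was also called with the hybridization controls (-0.90). Tnfrsf19, a receptor that marks progenitor cells in several epithelia, fell by 0.73 ± 0.09 (SE, adjusted p = 5.53e-05), with 8.37, 8.03 and 8.14 in WT_DES, against 8.80, 8.91 and 9.02 in WT_vehicle. Its call held on the hybridization scale too (-0.37).

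Not all targets fell. Cd44, a hyaluronan receptor that leukocytes and basal cells also carry, rose by 2.72 ± 0.16 (SE, adjusted p = 6.56e-08), with 9.82, 10.45 and 10.08 in WT_DES, against 7.66, 7.15 and 7.38 in WT_vehicle. Znrf3, a ubiquitin ligase that removes Frizzled receptors, fell by 0.49 (adjusted p = 0.00285), but with the hybridization controls it was at -0.13 without a call. Axin2, Nkd1, Tnfrsf19 and Znrf3 were thus each lower on the deposited scale, where 2 of the 10 listed targets rose and Lef1 did not pass. Among the lower ones named here, Nkd1 and Tnfrsf19 kept the call on every scale tried.

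R-spondins amplify Wnt signals by shielding Frizzled receptors from Znrf3 and its relative Rnf43. In that list of secretion and R-spondin genes 3 of 10 fell and none rose (median -0.15), against 2 higher and 1 lower with the hybridization controls (median 0.21). Rspo2 fell by 0.80 ± 0.09 (SE, adjusted p = 2.02e-05), with 6.06, 5.85 and 6.16 in WT_DES, against 6.78, 6.78 and 6.91 in WT_vehicle. It was the gene called lower on both scales (-0.45 with the hybridization controls). Its WT_DES values sat close to their array medians of 5.97, 5.95 and 6.09, with array 2 below, so the size of the fall is uncertain. Rspo4 fell by 0.41, a call lost with the hybridization controls (-0.06), without WT_DES array 2 and without WT_vehicle array 3. Porcn and Wls, which every cell needs to make and release Wnts, differed by 0.01 and 0.04 and did not pass.

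Of 12 other extracellular inhibitors 2 rose and 4 fell (median -0.15), against 3 and 1 with the hybridization controls (median 0.21). Igfbp4, an insulin-like growth factor carrier also described as a Wnt inhibitor, rose by 1.35 ± 0.08 (SE, adjusted p = 8.97e-08). Frzb, the Frizzled-related protein also called Sfrp3, rose by 0.36 (adjusted p = 0.0231), a call lost without WT_DES array 2, WT_vehicle array 1 or WT_vehicle array 2. Dkkl1, a Dkk3 relative known from the testis, fell by 1.36 ± 0.19 (SE, adjusted p = 1.34e-04), with 9.82, 9.14 and 8.94 in WT_DES, against 10.45, 10.74 and 10.77 in WT_vehicle, and was also called with the hybridization controls. Notum, an enzyme that strips the lipid from Wnts, fell by 0.35, and its sign turned with the hybridization controls (0.0066).

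Of 16 receptors and effectors of the non-canonical branch 6 rose and 1 fell, and the other 9 did not pass (median 0.06, and -0.01 with median scaling). On the hybridization scale 10 rose and 0 fell (median 0.42), where 41.5% of all genes were called higher. Ror1, a Wnt5a receptor, rose by 0.97 ± 0.10 (SE, adjusted p = 7.24e-06), with 7.93, 8.32 and 7.97 in WT_DES, against 7.14, 7.04 and 7.13 in WT_vehicle. Nfatc1, a calcium-dependent transcription factor that leukocytes also use, rose by 0.58, the polarity cadherin gene Celsr2 by 0.39 and the co-receptor gene Ptk7 by 0.37. All 4 kept their calls in every alternative.

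The intracellular core was mixed. Of 17 genes of the core and destruction complex 3 rose and 4 fell (median -0.02), against 8 and 0 with the hybridization controls (median 0.34). Nkd2, a relative of Nkd1, rose by 0.43 and the kinase gene Csnk1e by 0.35, while Dact2 (-0.35) and Amer1 (-0.33) fell on the deposited scale and turned sign with the hybridization controls (0.0038 and 0.03). The Amer1 call was also lost without WT_DES array 3 and without any 1 WT_vehicle array. Of 13 nuclear partners 1 rose and 6 fell (median -0.12), against 3 and 0 with the hybridization controls (median 0.24). Tle3, a Groucho co-repressor, rose by 0.43, and the beta-catenin partner Tcf7l2 (-0.45) and the co-repressors Tle1 (-0.44) and Tle2 (-0.32) fell. These 3 lost their calls with the hybridization controls, where Tle2 turned sign (0.04).

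In aERKO no gene of these 6 lists was called after DES, as no gene on the array was. The interaction passed for Nkd1 (1.18, adjusted p = 1.72e-04), Tnfrsf19 (0.64, 0.00395), Rspo2 (0.82, 6.05e-04), Dkkl1 (1.18, 0.00856), Igfbp4 (-1.32, 6.45e-06), Cd44 (-2.77, 3.27e-06) and Ror1 (-0.86, 7.28e-04). In all it passed for 17 of the 22 genes named from the lists, where 9.16% of all genes were positive and 14.1% negative. The 22 were named for a large called difference in WT. The interaction uses the same WT arrays, so the count of 17 is no separate support. The interaction did not pass for Rspo4 (0.47, adjusted p = 0.0683), Frzb (-0.26, 0.235), Celsr2 (-0.34, 0.0847), Nkd2 (-0.34, 0.0501) and Amer1 (0.25, 0.249).

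**Figure D4:**
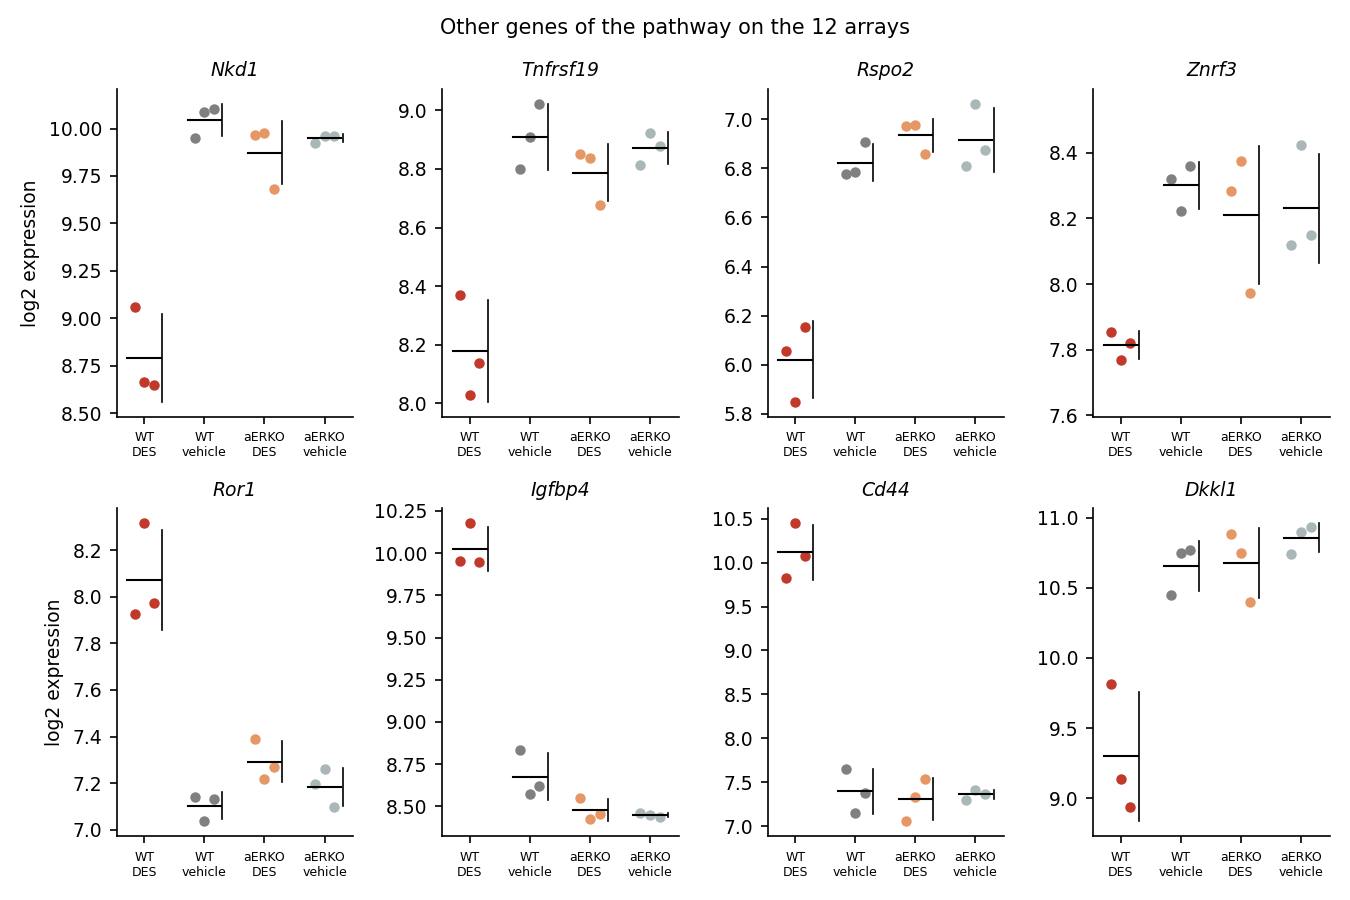
Log2 expression (y axis, its own range in each panel) of 8 other pathway genes on the 12 arrays, with 1 point per array, a line at the group mean and a bar of 1 SD. The WT_DES arrays lie below all others for Nkd1, Tnfrsf19, Rspo2, Znrf3 and Dkkl1 and above all others for Ror1, Igfbp4 and Cd44.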

How the data were processed

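Per the submitters' processing notes the authors processed the scans by robust multi-array averaging (RMA) in Affymetrix Expression Console, and the values they deposited are log2 expression, 1 per probe set and array. RMA corrects for background, gives all arrays 1 distribution and combines a set's probes, so a broad change can push other genes slightly the opposite way. The sources used here give neither its version and settings nor a genome build. The labels' protocols give an input of 300 ng RNA for each array.

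Of 72688 probe sets 30604 had exactly 1 gene symbol, and only these were named. For 1135 of these the symbol was replaced by the current one in RefSeq's GRCm38.p6 gene list, which left 30063 genes. A gene with several probe sets was represented by that with the highest mean, and genes above the array median on at least 3 of 12 arrays were tested (20102). The test was limma (version 3.58.1, run in R 4.3.3; lmFit, then eBayes) on all 12 arrays, with 1 mean per group, two-sided, and Benjamini-Hochberg adjustment over all genes tested. A gene was called at an adjusted p below 0.05. There were 8 residual degrees of freedom, with a prior of 4.33, and 95% intervals come from this fit. A run of the fit on simulated data counted recovered and false calls. It held no shift of whole arrays and did not check the intervals.

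The members, the 6 pathway lists, the 12 marker lists, the tests and the alternatives were chosen with earlier results of these data known. Values on every array are given for members called in a comparison, up to the 16 largest differences in each, and up to 4 called genes per pathway list are named. Members and genes named without a call, such as Wnt5a, Wnt7a, Wnt9b, Lrp5, Lef1, Porcn and Wls, and the calls read on the hybridization scale alone fall outside that rule and were named after their values were seen.

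A single choice was altered per alternative: no filter, a stricter filter (above the 60th percentile), the mean of all probe sets, only the groups compared, trend and robust moderation, array weights, median scaling, quantile normalization, scaling to the hybridization controls, the replicate number as a block, and each array left out in turn. For the other genes of the pathway they were added after the data were seen. The number of arrays limits the precision, and no read depth applies.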

Additional observations from a re-analysis of the deposited data

Results flagged for a closer look

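The response to DES differed between aERKO and WT for 12 members by a test of the difference itself (limma interaction term, aERKO response minus WT response, adjusted p below 0.05). The differences were -2.33 for Sfrp1, -1.63 for Dkk2, -0.75 for Dkk3, -0.37 for Wnt4, -0.30 for Fzd6 and, for Sfrp4, which was below the array medians outside WT_DES, -2.44, where the increase of WT was not seen in aERKO. They were 0.57 for Fzd10, 0.47 for Fzd3, 0.41 for Dkk1, 0.39 for Axin2, 0.34 for Wnt8a and 0.33 for Fzd5, where the decrease of WT was not seen in aERKO. The background control sets differed by -0.43 between WT_DES and WT_vehicle on average, against -0.05 between aERKO_DES and aERKO_vehicle, and their part in the positive differences was not tested.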

How the results depend on the processing

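Of 54 called differences of members 14 kept direction and call in every alternative run: Sfrp1, Sfrp4, Dkk2 and Dkk3 in WT, between the responses and between the genotypes given DES, Wnt4 in WT and Fzd6 given DES. In WT the number of members lower was 10, and it was 19 with array weights (whose fit stopped before converging), 19 with median scaling, 18 with quantile normalization and 0 with the hybridization controls, where the number higher was 11 instead of 7. Of all genes tested, 23.3% were called lower as deposited and 32.2% with array weights. The share was 35.4% with median scaling and 35.5% with quantile normalization. On the hybridization scale 1.74% were lower and 41.5% higher. With the hybridization controls the positive interaction calls were 0, against 0.662% of all genes. The members higher in aERKO than in WT given DES were then 0, against 2.75% of all genes. Called differences of members and of pathway genes named in the text turned sign on that scale alone. In WT these were Dkk1 (0.032), Fzd5 (0.039), Fzd8 (0.090), Wnt1 (0.0018), Wnt5b (0.052), Wnt6 (0.13), Wnt8a (0.16), Notum (0.0066), Dact2 (0.0038), Amer1 (0.025) and Tle2 (0.039), and given DES it was Fzd2 (-0.0044). Of 13 further pathway genes called in WT and not named, 9 turned sign there. The scale adds about the same amount to every gene of WT_DES. Leaving out 1 array at a time gave 5 to 8 higher and 5 to 16 lower in WT, 3 to 8 positive and 4 to 7 negative interactions, and 10 to 21 higher and 6 to 7 lower in aERKO than in WT given DES. For these fits the shares of all genes called are not given, so shifts of the members alone cannot be told from shifts of all genes. In aERKO, and between genotypes given vehicle, every alternative called 0 members. Deviations of same-numbered arrays correlated above 0.1 in 6 of 18 pairs (range -0.355 to 0.52). All 6 lay between arrays numbered 2 or 3 of WT_DES, aERKO_DES and aERKO_vehicle. Pairs with unlike numbers ranged from -0.565 to 0.584, so this check cannot tell whether the numbers pair the arrays. The replicate block gave 7 higher and 15 lower in WT, with 22.4% and 27.3% of all genes. It gave 7 and 6 interactions, with 13.5% and 16.3% of all genes, and 20 and 7 given DES, with 30.6% and 26.5%. The only-groups-compared fit gives no interaction value. Dim members such as Sfrp4, Fzd8, Wnt8b and Wnt16 are limited by signal over background. The limit is not theirs alone. The brightest background control set averaged 9.28 in WT_vehicle and 8.52 in WT_DES. Of the 41 members, 40 had a WT_vehicle mean and 34 a WT_DES mean below it. A value above the array median therefore does not by itself show that a transcript was present.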

Other observations

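Wnt8b, which did not pass the filter, measured 5.54, 5.41 and 5.59 in WT_DES, against 5.85, 5.91 and 5.90 in WT_vehicle, and 6.09, 6.10 and 6.11 in aERKO_DES, against 6.07, 6.03 and 6.02 in aERKO_vehicle. The WT_DES arrays were the lowest and all 6 aERKO arrays lay above the WT arrays, but the values sit near or below the array medians of 5.95 to 6.14 and were not tested.

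The difference of the background controls between WT_DES and WT_vehicle was larger for probes with more G and C bases. It was -0.05 for probes with 3 such bases, -0.24 with 11, -0.67 with 18 and -0.81 with 24. In aERKO the same sets differed by -0.04, -0.04, -0.01 and -0.12. The G and C content of the members' probes is not used here, so their position on this scale is not given.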
